A study of Mus musculus with 10 samples.

Results

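The data describe 7 mouse genes of heme degradation and heme sensing, followed across 10 RNA sequencing libraries of leukaemic progenitor cells. The genes were chosen by name: the heme oxygenases Hmox1 and Hmox2, the biliverdin reductases Blvra and Blvrb, the heme sensor Bach1, and the heme-binding proteins Hebp1 and Pgrmc1. All 7 are in the count table of 52636 genes, and all 7 are among the 15916 genes with enough counts to be tested. The cells come from a model named DIN, made by giving fetal liver cells 3 MSCV retroviral vectors that carry DNMT3A R882H with dsRed, IDH2 R140Q with GFP, and NRAS G12D with the tetracycline transactivator. Frozen cells of moribund mice were transplanted into Ptprca recipients, which then had normal or doxycycline chow and water. Doxycycline turns off the DNMT3A R882H vector, while the IDH2 R140Q and NRAS G12D vectors are carried by every group. The RNA came from marrow and spleen cells sorted for surface cKit and against Cd11b. There were 2 libraries without doxycycline at day 5 (day 5 on), 2 with doxycycline for 5 days (day 5 off), 2 without doxycycline at day 14 (day 14 on) and 4 with doxycycline for 14 days (day 14 off). The labels give neither the tissue nor the mouse of each library, so p-values measure the spread between these libraries, which may be technical. No library had doxycycline without the regulated vector, so effects of the drug and of the vector cannot be told apart.

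Heme is broken down by heme oxygenase, which opens the porphyrin ring with electrons from cytochrome P450 reductase and releases iron, carbon monoxide and biliverdin. HMOX1 is the inducible form and HMOX2 the constitutive form, and biliverdin reductases then turn biliverdin into bilirubin. BACH1 is a repressor that pairs with small MAF proteins on antioxidant genes such as Hmox1, and heme binding takes it off DNA, while NRF2 activates many of the same genes. Developing red cells make large amounts of heme, and macrophages that take up old red cells are known for high HMOX1.

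Blvrb and Hebp1 rose together when the vector was off, and the 250 bases before their RefSeq start sites are shown because they carry the largest changes among the 7 genes. RefSeq sequences (build GRCm38.p6) were found for 6 of the 7 genes in 9 windows, and none was used for Hmox1. Windows were searched on both strands for a GATA factor core (AGATAA), a Krüppel-like factor box (CCNCNCCC), an antioxidant response element core (TGACNNNGC) and the extended MAF recognition element. Capitals mark matches, all of them to the Krüppel-like factor box. The windows are plus-strand chr7:27447728-27447977 for Blvrb and minus-strand chr6:135168216-135168465 for Hebp1. The Hebp1 window lies inside the annotated gene span given below (135137522 to 135198022) and not before the 5' end of that span.
Blvrb: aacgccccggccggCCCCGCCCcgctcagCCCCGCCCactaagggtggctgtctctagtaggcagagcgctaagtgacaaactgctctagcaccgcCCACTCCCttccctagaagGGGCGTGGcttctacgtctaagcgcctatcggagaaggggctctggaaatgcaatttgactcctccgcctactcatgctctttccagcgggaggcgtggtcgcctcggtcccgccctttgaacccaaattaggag
Hebp1: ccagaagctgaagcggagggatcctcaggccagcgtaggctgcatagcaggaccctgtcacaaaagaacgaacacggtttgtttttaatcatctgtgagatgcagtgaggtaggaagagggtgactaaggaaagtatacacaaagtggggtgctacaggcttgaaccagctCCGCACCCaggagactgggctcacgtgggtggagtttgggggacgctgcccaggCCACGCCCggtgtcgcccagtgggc
The Blvrb window shown holds 4 matches and the Hebp1 window 2, with no overlap among them, and a second Blvrb window holds 0. This box is common: 45.9% of 32851 promoter windows of the same length hold it. The windows of Bach1, which fell, and Pgrmc1, which was not called, hold 7 and 5 matches, some of which overlap in each window. For Hmox2, also not called, 1 of the 3 windows holds 4 overlapping matches. The window of Blvra, which rose, holds 0. The GATA core stands in 9.99% of all windows and in none of the 9 member windows, and the MAF element in 0.353% and in none. The antioxidant core stands in 10.2% of all windows and in 1 window each of Blvra and Pgrmc1.

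Total counts ran from 9292644 to 14340624 per library, so that 3 counts, the limit that a count of 0 allows, equal 0.209 CPM at the lowest. Levels are CPM, counts scaled to library size, here with edgeR's TMM factors. The reads come from transcript 3' ends, and levels are compared between groups for each gene and not between genes. Kit, the gene of the sort marker, was present in every library, at 30.9 to 36.4 CPM at day 14 off and 88.8 to 98.0 CPM at day 14 on. Itgam, the gene of Cd11b, was at 2.06 to 3.72 CPM at day 14 off and 21.8 and 8.75 CPM at day 14 on. Its day 5 values were 14.6 and 3.16 CPM off and 6.74 and 3.07 CPM on. Of these 2 sort marker genes edgeR called 2 lower at day 14, against 14.9% of all tested genes. It called 0 at day 5, against 0.484%, and 1 lower for the difference between the days, against 1.41%. Red cell precursor markers were read beside the members. Their sum over 18 genes without the hemoglobin genes, a subset chosen after the values were seen, was 2357 to 2484 CPM at day 14 off and 93.4 to 95.9 CPM at day 14 on. At day 5 it was 174 and 674 CPM in off replicates 1 and 2, and 53.7 and 73.1 CPM on. Over the full 22 detected genes, hemoglobin included, the sums were 4317 to 5648, 1582 to 2197, 1056 to 2507 and 1414 to 3404 CPM at day 14 off, day 14 on, day 5 off and day 5 on. None of the 22 was at 0 in any library. At day 14 edgeR called 17 higher and at day 5 it called 3 higher, against 16.9% and 0.371% of all tested genes. It called 0 lower at either day, against 14.9% and 0.113%. The part of these cells in the changes below was not tested, and in bulk samples a change in the share of a cell type and a change per cell cannot be told apart.

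At day 14, the question was which of the genes changed when the vector was off. Of the 7 genes, edgeR's quasi-likelihood test called 3 higher (Blvrb, Hebp1 and Blvra) and 1 lower (Bach1) at an adjusted p of 0.05. Over all tested genes it called 31.8%, 16.9% higher and 14.9% lower. The libraries of the groups did not overlap for these same 4 genes, as for 52.5% of all tested genes (27.9% with off higher, 24.6% with off lower). The median log2 change of the 7 was 0.20, against 0.01 over all tested genes. The plot of values by library shows all 7 genes.

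**Figure D1:**
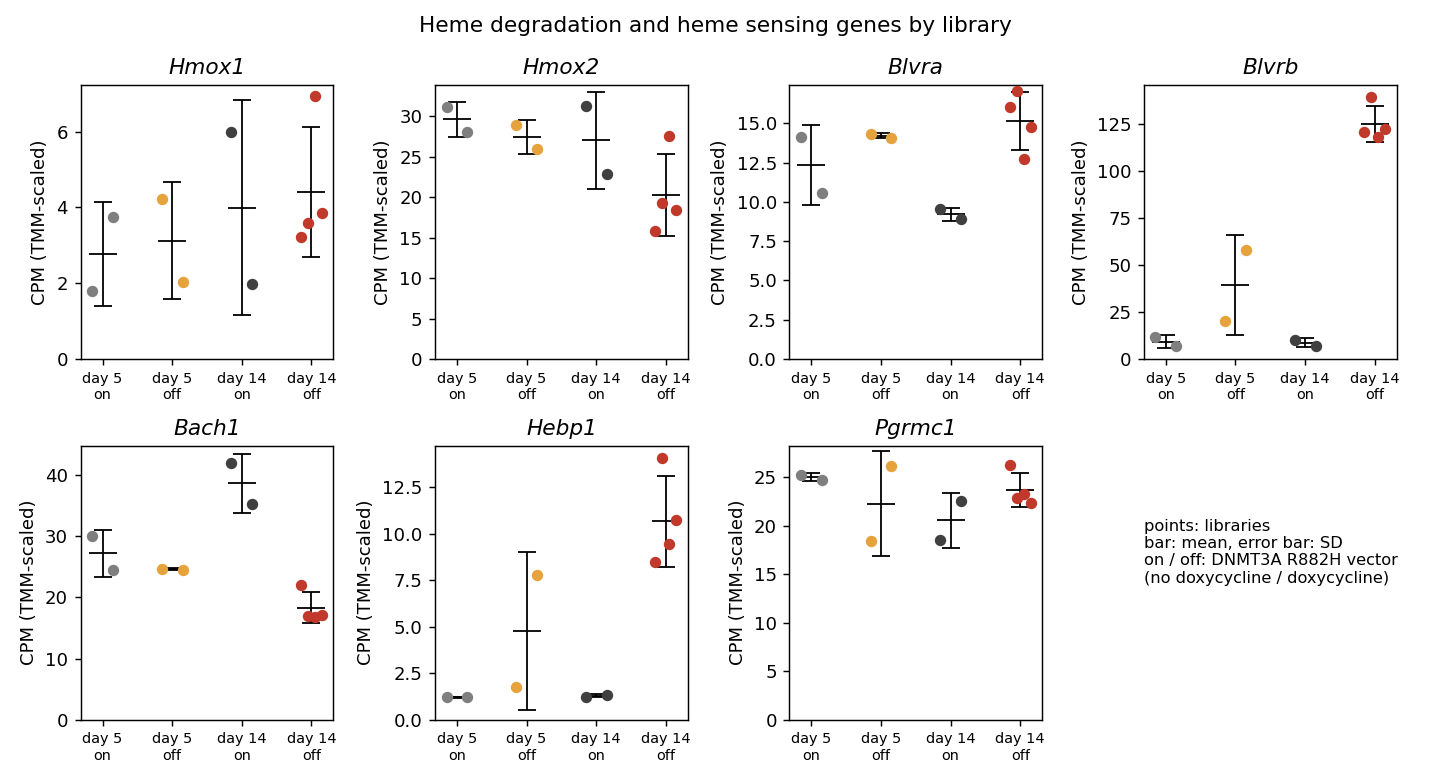
TMM-scaled CPM of the 7 genes in each library (points), with the mean and SD of each group; every axis starts at 0. Blvrb sits at 118 to 139 CPM in the 4 day 14 off libraries and at 6.75 to 11.6 CPM in the 4 on libraries, while Hmox1 spreads as widely within groups as between them.

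Of the heme oxygenases, Hmox1 (ENSMUSG00000005413, chromosome 8, 75093621 to 75100589, mm10) had the fewest reads and, relative to its level, the widest spread within groups. At day 14 its counts were 38, 49, 101 and 41 with the vector off and 58 and 22 with it on, or 3.21, 3.58, 6.94 and 3.85 CPM against 6.0 and 1.98 CPM. At day 5 its counts were 41 and 25 off and 16 and 50 on, or 4.22 and 2.03 CPM against 1.80 and 3.75 CPM. The 2 libraries of each pair group thus differed by more than the group means did, and off and on overlapped at both days. The log2 change was 0.16 ± 0.51 (SE) at day 14, with a 95% interval of -0.97 to 1.29 (edgeR adjusted p = 0.842). At day 5 it was 0.13 ± 0.61, with an interval of -1.23 to 1.48 (edgeR adjusted p = 0.948). These intervals leave room for a change of more than 2-fold in either direction at day 5 and upward at day 14. The sign at day 14 turned without day 14 off replicate 3 (-0.17) and without day 14 on replicate 2 (-0.45).

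Macrophage and monocyte markers were read beside Hmox1. The 16 macrophage markers summed to 344 to 433 CPM at day 14 off, 324 to 349 at day 14 on, 465 to 498 at day 5 off and 437 to 637 at day 5 on, of which Siglec1 alone gave 264 to 600 CPM. The 3 complement genes C1qa, C1qb and C1qc, typical of tissue macrophages, were at or below 5.34 CPM in every library. Other markers of the list reached higher levels. Cd68 ran from 8.63 to 21.3 CPM, Hpgd from 3.15 to 26.0 CPM and Vcam1 from 1.01 to 19.4 CPM. In day 14 off replicate 3 Cd68 was the highest of its group (15.7 CPM) and Siglec1 the lowest (299 CPM). C1qb, Mertk and Marco were each at 0 in at least 2 libraries, and no other marker of the 16 was at 0. The sum of the 8 monocyte markers was 1590 CPM in day 14 off replicate 3, where Hmox1 was highest, against 762 to 1080 CPM in the other 3 libraries, and 1857 against 573 CPM in day 14 on replicates 1 and 2. Irf8, a transcription factor gene of monocyte and dendritic cell development, gave 1494 of the 1590 CPM. Ccr2, Cx3cr1, Csf1r and Fn1 were each lowest in that same library among the 4. Ms4a6c was highest there (24.4 CPM), and Ly6c2 and F13a1 lay within the range of the other day 14 off libraries. At day 5 the sums were 1562 and 1059 CPM off and 1433 and 461 CPM on, so that on replicate 2 had the higher Hmox1 and the lower sum. At day 14 edgeR called 3 of 14 tested macrophage markers lower (Adgre1, Cd163 and Hpgd) and 2 of 8 monocyte markers lower (Ly6c2 and Ms4a6c), with 0 higher in either list. Of 10 neutrophil markers it called 1 higher (Mmp9) and 2 lower (S100a9 and Ngp), and their sums were 793 to 1221 CPM off and 1175 to 1849 CPM on. Of 5 tested megakaryocyte markers it called Gp5 higher and Itga2b lower, with sums of 37.3 to 62.2 CPM off and 38.5 to 57.2 CPM on. These counts of called markers stand against 31.8% of all tested genes called at day 14, 16.9% higher and 14.9% lower. The part of these cells in the members' values was not tested.

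Hmox2 (ENSMUSG00000004070, chromosome 16, 4726361 to 4766742) was at 15.8, 19.3, 27.6 and 18.4 CPM at day 14 off and 31.3 and 22.8 CPM at day 14 on. Day 14 off replicate 3 lay inside the range of the on libraries and the other 3 lay below it. The log2 change was -0.41 ± 0.22, with an interval of -0.89 to 0.07 (edgeR adjusted p = 0.178). Without day 14 off replicate 3 it was -0.61 ± 0.18 and was called (edgeR adjusted p = 0.0272). At day 5 Hmox2 was at 28.9 and 25.9 CPM off and 31.2 and 28.1 CPM on, a change of -0.11 ± 0.25 (edgeR adjusted p = 0.882). Hmox2 overlaps Gm15859 on its own strand and Cdip1 on the other strand. Their counts differed from those of Hmox2 by more than 2% in at least 1 library, but reads within the overlaps cannot be assigned by strand, since the strand setting is not given in the sources used here.

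Within a library the share of Hmox1 among the reads of both oxygenases does not depend on scaling. At day 14 it was 15.7% to 20.1% with the vector off, and 16.1% and 8.0% with it on, with exact Clopper-Pearson 95% intervals of 12.5% to 20.3% and 5.08% to 11.9% for the on libraries. The off mean was 17.5% ± 1.89 (SD, n = 4) and the on mean 12.1% ± 5.74 (SD, n = 2), and the groups overlapped (exact permutation test, two-sided p = 0.133, smallest possible 0.0667). At day 5 the shares were 12.7% and 7.25% off and 5.44% and 11.8% on. Such intervals cover counting error only.

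The biliverdin reductases moved in the same direction at day 14 but by different amounts. Blvrb (ENSMUSG00000040466, chromosome 7, 27447978 to 27466144), which also acts as a flavin reductase and is abundant in red cells, was at 120.4, 139, 118 and 122 CPM at day 14 off and 10.4 and 7.04 CPM at day 14 on. All 4 off libraries lay above 117 CPM. The means were 125 ± 9.60 CPM (SD, n = 4) and 8.69 ± 2.34 CPM (SD, n = 2), a 14.4-fold difference and a log2 change of 3.85 ± 0.44 (edgeR adjusted p = 2.28e-04). Over the alternatives tried the change ran from 3.58 to 4.12.

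Blvra (ENSMUSG00000001999, chromosome 2, 127070665 to 127097084), the main reductase of adult heme breakdown, was at 16.1, 17.0, 12.7 and 14.8 CPM at day 14 off and 9.52 and 8.93 CPM at day 14 on. The groups did not overlap, and the log2 change was 0.71 ± 0.19 (edgeR adjusted p = 0.0163). Leaving out either day 14 on library ended the call, with edgeR adjusted p-values of 0.0801 (replicate 1) and 0.103 (replicate 2). Both day 5 on libraries, at 14.1 and 10.6 CPM, lay above both day 14 on libraries. The change from day 5 to day 14 was -0.42 ± 0.22 with the vector on (edgeR adjusted p = 0.314). With the vector off it was 0.09 ± 0.18 (edgeR adjusted p = 0.777), from 14.3 and 14.1 CPM at day 5.

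Blvrb made up 88.2% to 90.3% of the reads of both reductases in the 4 day 14 off libraries and 52.1% and 44.1% in the day 14 on libraries. The 95% intervals were 44.8% to 59.3% and 36.6% to 51.7% on, and the lowest bound off was 86.6%. The mean shares were 89.2% ± 0.830 (SD, n = 4) and 48.1% ± 5.67 (SD, n = 2), and the exact permutation test gave a two-sided p = 0.0667, the smallest this design allows. At day 5 the shares were 58.8% and 80.5% off and 45.0% and 39.0% on.

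**Figure D2:**
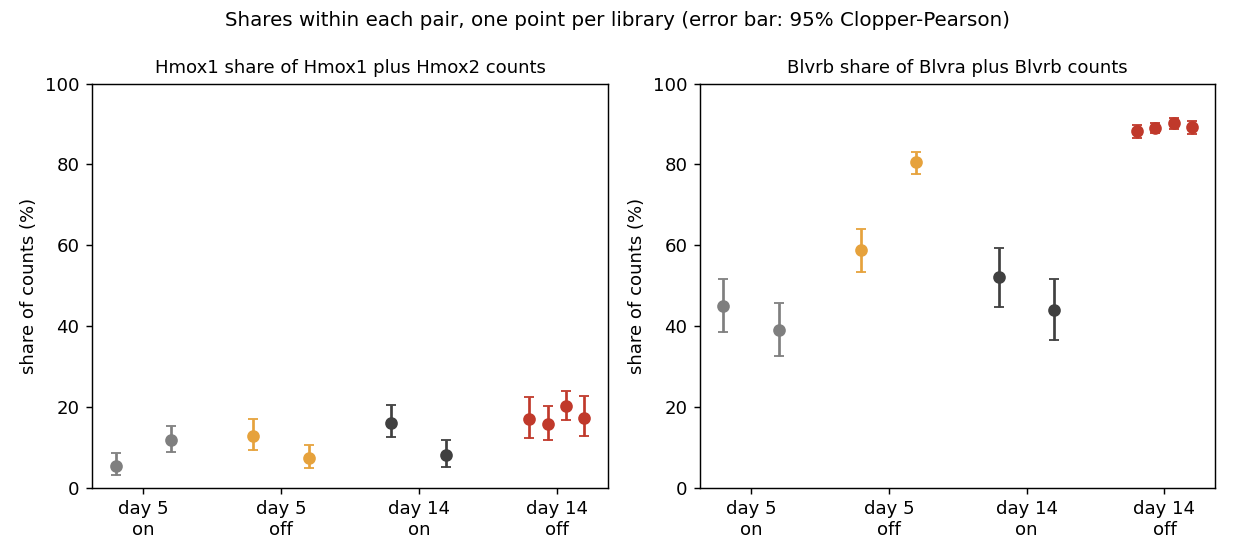
Share of Hmox1 among Hmox1 and Hmox2 counts (left) and of Blvrb among Blvra and Blvrb counts (right), in percent, 1 point per library with its exact Clopper-Pearson 95% interval. The Blvrb share is 88.2% to 90.3% in the day 14 off libraries and 39.0% to 52.1% in the on libraries, and the Hmox1 share stays between 5.44% and 20.1%.

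Bach1 (ENSMUSG00000025612, chromosome 16, 87698945 to 87733346), the heme-regulated repressor, fell by about 1 on the log2 scale at day 14. It was at 22.1, 17.0, 16.8 and 17.2 CPM off and at 42.0 and 35.3 CPM on, and every off library lay below both on libraries. The log2 change was -1.08 ± 0.16 (edgeR adjusted p = 7.12e-04), and it ran from -1.21 to -0.98 over the alternatives. The on libraries at day 14 were also above those at day 5, which held 30.0 and 24.5 CPM. With the vector on, Bach1 changed by 0.51 ± 0.19 from day 5 to day 14 (edgeR adjusted p = 0.167). With it off, Bach1 went from 24.7 and 24.6 CPM to the day 14 levels, a change of -0.43 ± 0.17 (edgeR adjusted p = 0.0997). Neither change over time passed the threshold. In each the libraries of the days did not overlap, but the share of all tested genes with such a gap was not computed. With the vector on, Blvra, Pgrmc1 and Hebp1 also showed such a gap, Hebp1 at a change of only 0.10 ± 0.66 (edgeR adjusted p = 0.959). With the vector off, Blvrb and Hebp1 also showed one.

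Of the heme-binding proteins, Hebp1 rose and Pgrmc1 did not pass the test. Hebp1 (ENSMUSG00000042770, chromosome 6, 135137522 to 135198022), a small cytosolic protein that binds heme and porphyrins, was at 8.46, 14.0, 9.42 and 10.7 CPM at day 14 off and at 1.24 and 1.35 CPM at day 14 on. The means were 10.7 ± 2.44 CPM (SD, n = 4) and 1.30 ± 0.0785 CPM (SD, n = 2), from counts of 100 to 192 and of 12 and 15. The log2 change was 3.03 ± 0.54 (edgeR adjusted p = 0.00203). Annotated genes overlap it: Fam234b overlaps its annotated 5' end on the other strand with 13 to 126 counts, and the other 3 had at most 3 counts in any library.

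Pgrmc1 (ENSMUSG00000006373, chromosome X, 36598206 to 36606079), a membrane protein that binds heme and is known to interact with ferrochelatase, was at 26.2, 22.8, 23.2 and 22.3 CPM at day 14 off and 18.5 and 22.6 CPM at day 14 on. The ranges overlapped, and the log2 change was 0.20 ± 0.17 with an interval of -0.18 to 0.58 (edgeR adjusted p = 0.411). Its day 5 values were 18.4 and 26.1 CPM off and 25.3 and 24.7 CPM on, a change of -0.16 ± 0.20 (edgeR adjusted p = 0.754). Both intervals lie within a 2-fold change in either direction.

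**Figure D3:**
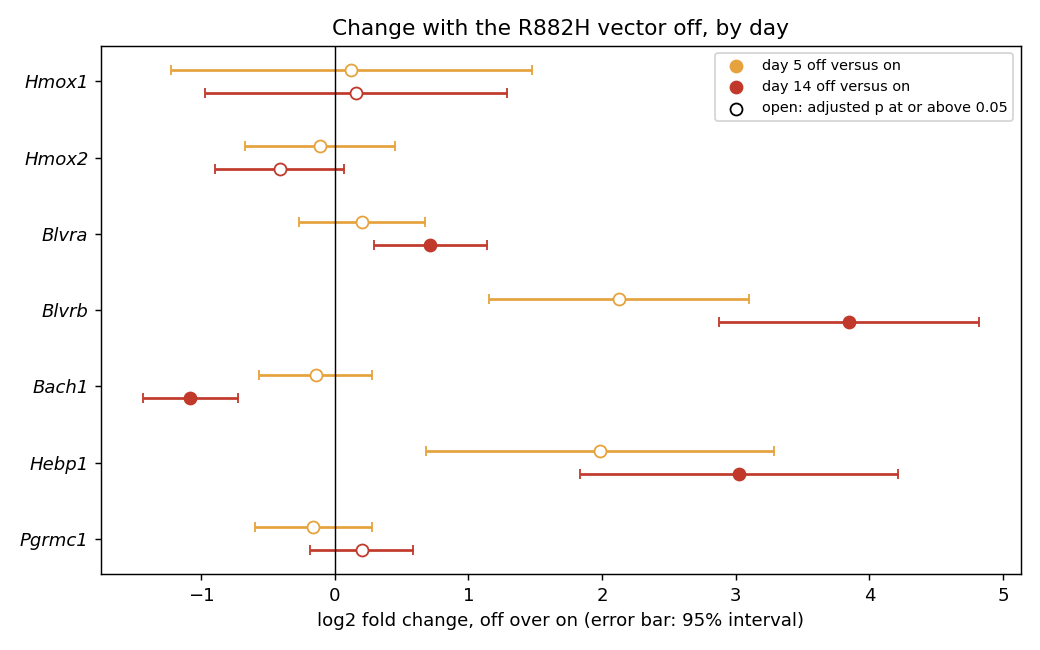
Log2 fold change of each gene, off over on, at day 5 and day 14 (points), with 95% intervals; filled points have an edgeR adjusted p under 0.05 over all tested genes. Blvrb, Hebp1 and Blvra lie to the right and Bach1 to the left at day 14, and all 7 points of day 5 are open.

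The day 5 comparison asked which changes were present early. edgeR called 0 of the 7 genes at day 5, where 0.484% of all tested genes were called (0.371% higher, 0.113% lower). Of the 7, 2 had an unadjusted p under 0.05, against 14.9% of all tested genes, and DESeq2 called 2, against 2.97%, in both cases Blvrb and Hebp1. Blvrb was at 20.4 and 58.2 CPM off and 11.6 and 6.75 CPM on, a log2 change of 2.12 ± 0.44 (edgeR adjusted p = 0.0733). Hebp1 was at 1.75 and 7.78 CPM off and 1.23 and 1.20 CPM on, a change of 1.99 ± 0.59 (edgeR adjusted p = 0.170). For both genes each off library lay above each on library, as in 19.3% of all tested genes, while 20.9% had off lower in every library (40.2% either way). In both, off replicate 2 was far above off replicate 1, as it was for the red cell precursor markers (674 against 174 CPM). Without off replicate 1 the changes were 2.69 for Blvrb and 2.67 for Hebp1, and without on replicate 1 Blvrb was at 2.50. Both fits keep off replicate 2, the off library with the higher values, and each leaves 1 library in a group. Off replicate 1 alone lay nearer the on libraries. Its Hebp1 value rested on 17 counts, against 11 and 16 counts in on replicates 1 and 2. Its Blvrb value was 20.4 CPM, against 11.6 and 6.75 CPM. Without off replicate 2 the difference between the days, given below, was larger for both genes.

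At day 5 Bach1 and Blvra did not pass the test. Bach1 was at 24.7 and 24.6 CPM off and 30.0 and 24.5 CPM on, a change of -0.14 ± 0.19 with an interval of -0.57 to 0.28 (edgeR adjusted p = 0.780). Blvra was at 14.3 and 14.1 CPM off and 14.1 and 10.6 CPM on, a change of 0.21 ± 0.21 with an interval of -0.27 to 0.68 (edgeR adjusted p = 0.704).

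Whether the effect of turning the vector off differed between the days was tested directly. edgeR called 0 of the 7 genes, against 3.06% of all tested genes (1.65% upward, 1.41% downward), while 2 had an unadjusted p under 0.05 (23.1% of all tested genes) and DESeq2 called 2 (8.34% of all tested genes), in both cases Blvrb and Bach1. The difference (day 14 effect minus day 5 effect) was -0.94 ± 0.25 for Bach1 (edgeR adjusted p = 0.0695), 1.72 ± 0.58 for Blvrb (0.119) and 1.04 ± 0.80 for Hebp1 (0.466). Without day 5 on replicate 1 the Bach1 difference was called (-1.06, edgeR adjusted p = 0.0477). Without day 5 off replicate 2 those of Blvrb (2.67, edgeR adjusted p = 0.0127) and Hebp1 (2.50, 0.0459) were called.

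Over time with the vector off, Blvrb rose and the other 6 genes did not pass the test. edgeR called 1 of the 7, Blvrb, against 17.0% of all tested genes (10.1% higher, 6.94% lower). Blvrb went from 39.3 ± 26.7 CPM (SD, n = 2) at day 5 to 125 ± 9.60 CPM (SD, n = 4) at day 14, a log2 change of 1.66 ± 0.37 (edgeR adjusted p = 0.0152). Without day 5 off replicate 1 the change was 1.10 and was not called (0.0627), and without day 5 off replicate 2 it was 2.61 (0.00268). Hebp1 changed by 1.14 ± 0.45 (edgeR adjusted p = 0.109), and by 2.60 without day 5 off replicate 2 (0.00772). Over time with the vector on, edgeR called 0 of the 7 against 2.32% of all tested genes (0.968% higher, 1.36% lower), DESeq2 called 0 (7.14% of all tested genes), and 1, Bach1, had an unadjusted p under 0.05 (20.4% of all tested genes). By mean level Blvrb was highest at day 14 off, then day 5 off, day 5 on and day 14 on; the first step passed the test, the day 5 off to day 5 on step did not, and the on groups differed by -0.06 ± 0.45 (edgeR adjusted p = 0.961).

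The genes whose levels ran most like each member were ranked by Pearson correlation of log2 CPM over the 10 libraries, among 8267 or 8268 genes. The libraries share their groups, so these values are descriptions. Blvrb ran closest to Car1, an early erythroid carbonic anhydrase (r = 0.996), Kel, a blood group antigen gene (0.996), and Klf1, an erythroid transcription factor (0.996). Hebp1 ran closest to Tspo2, an erythroid membrane protein gene (0.990), Icam4, a red cell adhesion gene (0.986), and Ctsl, which encodes cathepsin L (0.983). Between themselves Blvrb and Hebp1 had r = 0.977 over the 10 libraries.

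Blvra ran closest to the mitochondrial chaperonin gene Hspe1 (r = 0.985), Nup37, a nuclear pore gene (0.980), and Pola1, a DNA polymerase subunit gene (0.979). Bach1 ran closest to Apobec1 (r = 0.961), Slc35b3 (0.960) and Dock8 (0.959), and Hmox2 to Dctn3 (0.950), Tmed3 (0.946) and S100a11 (0.936). The best values were lower for Hmox1, with Thap4 at 0.907, Sel1l at 0.903 and Got2 at 0.891, and for Pgrmc1, with Rpap3 at 0.842, Gemin2 at 0.841 and Snhg15 at 0.831.

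**Figure D4:**
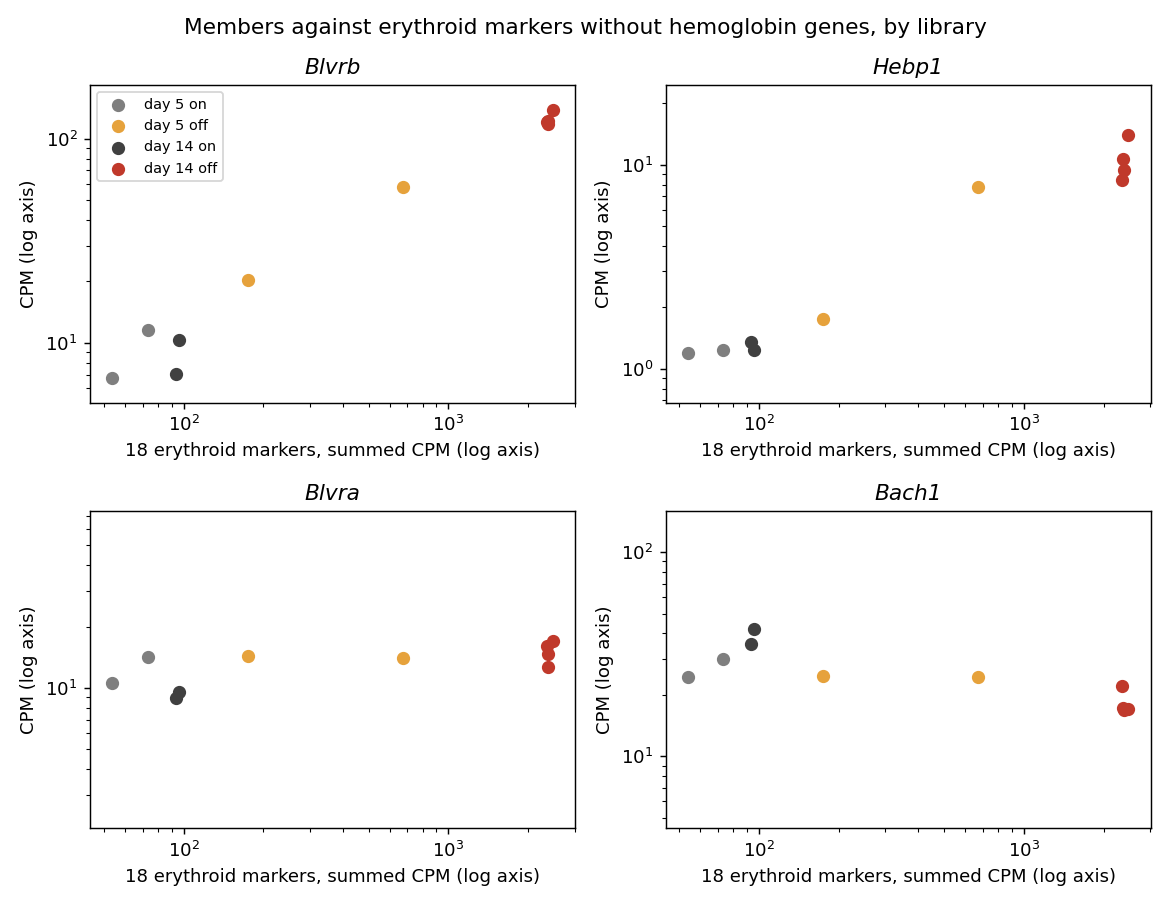
CPM of Blvrb, Hebp1, Blvra and Bach1 against the summed CPM of 18 red cell precursor markers without hemoglobin genes, 1 point per library, on log axes that span the same ratio in every panel. Day 5 off replicate 2, at 674 CPM of markers, has 58.2 CPM of Blvrb and 7.78 CPM of Hebp1, between the other day 5 libraries and the day 14 off libraries.

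The genes around Bach1 were read from 2 lists. The day 14 counts of these lists and of the 3 lists after them stand against 31.8% of all tested genes called at day 14. Of 11 tested genes that pair with BACH1, compete with it or set its turnover, edgeR called 0 higher and 1 lower at day 14. The 1 was Bach2, a related repressor known from lymphocytes and hematopoietic progenitors, at 5.75 to 9.14 CPM off and 24.2 and 37.4 CPM on, a log2 change of -2.10 ± 0.23 (edgeR adjusted p = 1.25e-04). Over the list the median change was -0.24, against 0.01 over all tested genes.

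Of 16 tested target genes of BACH1 and NRF2 other than Hmox1, edgeR called 5 higher and 1 lower at day 14. Over all tested genes it called 16.9% higher and 14.9% lower. Only the share called either way was near that of all tested genes. The list's median was 0.40, against 0.01 over all tested genes. Gclm, a subunit of glutathione synthesis, was at 110 to 147 CPM off and 22.6 and 28.3 CPM on, a change of 2.39 ± 0.25 (edgeR adjusted p = 1.13e-04). Nqo1, a quinone reductase, was at 21.7 to 32.0 CPM off and 0.725 and 0.992 CPM on, a change of 4.84 ± 0.71 (edgeR adjusted p = 8.33e-04). Srxn1, which repairs oxidised peroxiredoxins, rose by 2.18 ± 0.49 (edgeR adjusted p = 0.00688), a call lost without day 14 on replicate 1 (0.0629). Sqstm1, an autophagy receptor gene, fell by 0.63 ± 0.14 on the log2 scale (edgeR adjusted p = 0.00590), a call lost without day 14 on replicate 2 (0.0522). Hmox1, a target of both factors, had the day 14 interval of -0.97 to 1.29 given above.

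Upstream of bilirubin, Por, the electron donor of both heme oxygenases, rose at day 14. It was at 34.5 to 42.7 CPM off and at 14.5 and 16.1 CPM on, with no overlap, and the log2 change was 1.38 ± 0.16 (edgeR adjusted p = 1.61e-04). At day 5 it was at 15.1 and 17.1 CPM off and 12.0 and 13.1 CPM on, a change of 0.35 ± 0.18 (edgeR adjusted p = 0.388). The difference between the days was called (1.03 ± 0.23, edgeR adjusted p = 0.0438). Of the 4 tested genes of electron supply and bile pigment handling, edgeR called Por higher and Ugt1a1, a bilirubin glucuronidation gene, lower (-0.95 ± 0.30, edgeR adjusted p = 0.0345). Overlapping genes were looked up for the members only, so whether reads counted for Ugt1a1 also come from an overlapping gene was not examined. The Ugt1a1 call was lost without day 14 on replicate 1 (0.336) and without day 14 off replicates 1, 2 or 4 (0.0833, 0.0715 and 0.0656). The list's median was 0.03.

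Among 10 other tested heme-binding and heme-sensing genes edgeR called 2 higher and 2 lower at day 14, with a median of 0.42. Hebp2, the paralog of Hebp1, was at 0.0940 to 0.877 CPM off and 1.98 and 2.69 CPM on. Its log2 change was -2.62 ± 0.62 (edgeR adjusted p = 0.00845), opposite in sign to that of Hebp1. The Hebp2 change was -3.58 without day 14 off replicate 2 and was not called without day 14 on replicate 1 (edgeR adjusted p = 0.0564). Eif2ak1, the heme-regulated kinase that slows translation when heme is short, rose by 0.66 ± 0.13 (edgeR adjusted p = 0.00265). Ireb2, an iron regulatory protein, changed by -0.56 ± 0.14 (edgeR adjusted p = 0.0102), a call lost without day 14 on replicate 1 (0.0670). Pgrmc2, the paralog of Pgrmc1, changed by 0.46 ± 0.15 (edgeR adjusted p = 0.0422), a call lost without any 1 of 8 libraries, the 6 of day 14 and the 2 of day 5 off, and its adjusted p ran up to 0.246 without day 14 on replicate 1.

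Of 6 tested genes of heme transport and scavenging edgeR called 1 higher and 3 lower at day 14, with a median of -0.69. Flvcr1, a heme exporter, was at 19.3 to 24.6 CPM off and 11.1 and 13.5 CPM on, a change of 0.87 ± 0.18 (edgeR adjusted p = 0.00471), lost without day 14 on replicate 2 (0.0556). Cd163, the hemoglobin scavenger receptor of macrophages, was at 1.10 to 2.34 CPM off and 6.86 and 7.97 CPM on, a change of -2.02 ± 0.40 (edgeR adjusted p = 0.00366). Lrp1, a receptor that takes up heme bound to hemopexin, changed by -3.69 ± 0.81 (edgeR adjusted p = 0.00688). That value was -2.73 and not called without day 14 on replicate 2 (0.0698), -4.30 without day 14 on replicate 1 and -4.83 without day 14 off replicate 2. Hp, the hemoglobin-binding protein haptoglobin, changed by -1.40 ± 0.41 (edgeR adjusted p = 0.0232), a call lost without day 14 on replicate 1 (0.224) and without day 14 off replicate 1 (0.0580).

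At day 5 edgeR called 0 genes in each of these 5 lists. The counts with an unadjusted p under 0.05 were 2 of 11 BACH1 partners, 4 of 16 targets, 2 of 6 transport genes, 1 of 10 heme-binding genes and 0 of 4 genes of electron supply and bile pigments, against 14.9% of all tested genes. DESeq2 called 3 of the targets and 0 in the other lists, against 2.97% of all tested genes. The medians at day 5 were -0.10, 0.35, -0.29, -0.09 and -0.05, against -0.02 over all tested genes.

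**Figure D5:**
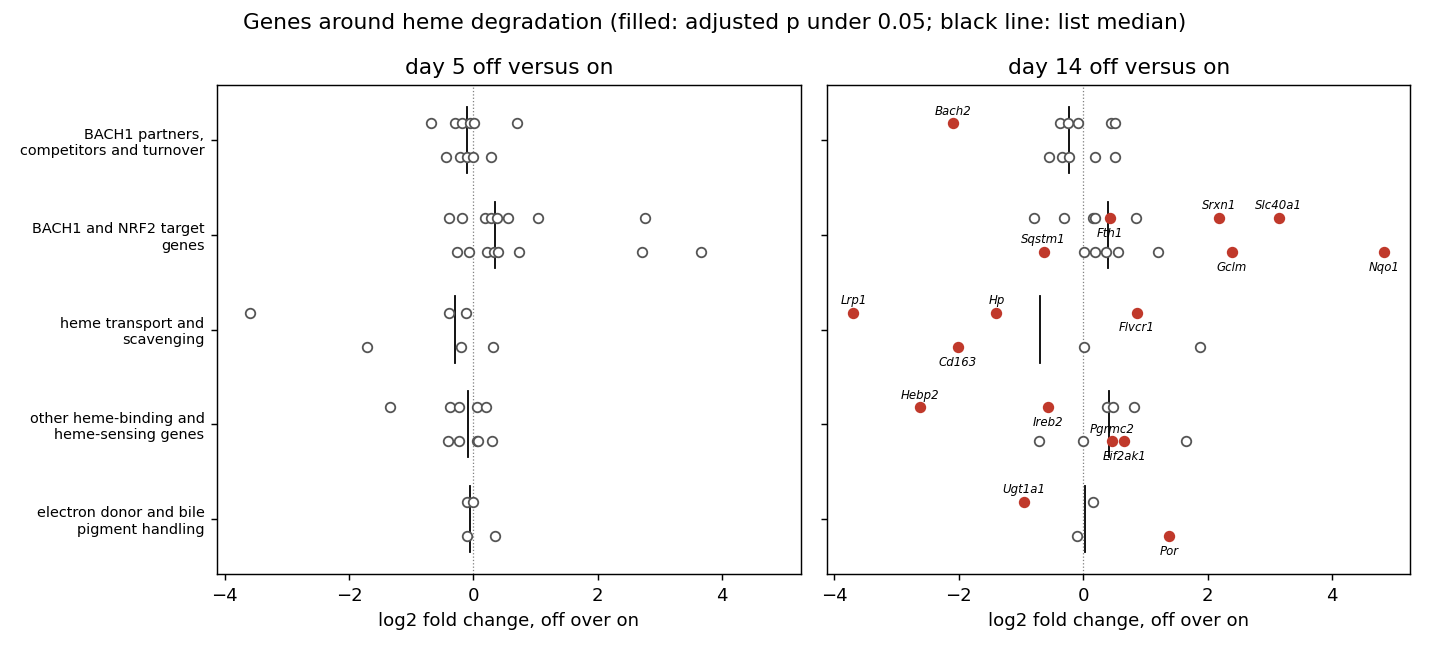
Log2 fold change, off over on, of the tested genes in 5 lists around heme degradation at day 5 (left) and day 14 (right), 1 point per gene, with the median of each list as a black line; filled, named points have an edgeR adjusted p under 0.05. No point is filled at day 5, and at day 14 the filled points run from Lrp1 at -3.69 to Nqo1 at 4.84.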

How the data were processed

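Trizol and Direct-zol gave the RNA of 10 sorted cell samples, and QuantSeq 3' libraries of polyA RNA were read single-end on a NextSeq500, per the labels' protocols. Build mm10, HISAT2 2.0.4, Subread 2.0.0 with featureCounts, cutadapt 1.14, bcl2fastq 2.17.1.14, limma 3.48.3 and edgeR 3.34.0 are listed, per the submitters' processing notes. The sources used here give neither strand setting nor annotation release. Whole-number raw counts for Ensembl gene IDs were deposited by the authors. Of the 52636 IDs, 52489 matched GENCODE release M21, which gave symbols and mm10 positions. Promoter windows come from RefSeq tables of GRCm38.p6.

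The tests used edgeR 4.0.16 in R 4.3.3. Genes were kept by filterByExpr with the 4 groups and scaled by TMM on total counts. One robust quasi-likelihood fit with a mean per group covered all 10 libraries, and p-values were adjusted by Benjamini-Hochberg over 15916 genes. Standard errors are the log2 change divided by the root of the F statistic, and 95% intervals use the t distribution with the fit's degrees of freedom. Likeness used log2 CPM with prior count 2 and genes averaging 3 or more on that scale, leaving out predicted models and genes that share counts with an overlapping gene. From each list up to 4 called genes of smallest p are named. Alternatives were RLE scaling, no low-count filter, DESeq2 1.42.0, a replicate-number block, only the compared groups, and each library left out, where a group's single remaining library takes the spread of the rest. The members, lists and motifs were chosen with earlier results of these data known. Ahsp of the red cell list was not found in the table under that symbol.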

Additional observations from a re-analysis of the deposited data

Results flagged for a closer look

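In day 14 off, where 4 libraries allow a check for a sample far from the others, 3 of 33 sets of 4 values were flagged, and chance flags about 1 in 20. Bach1 was at 22.1 CPM in replicate 1, while the other 3 libraries lay between 16.8 and 17.2 CPM, all below the on libraries at 35.3 and 42.0 CPM. Srxn1 was at 23.6 CPM in replicate 2, and its group's lowest value was 10.6 CPM. Lrp1 was at 3.29 CPM in replicate 2, against a group median of 0.620 CPM and on libraries at 8.59 and 25.2 CPM. The effect of turning the vector off differed between the days for Por, by 1.03 ± 0.23 on the log2 scale (edgeR adjusted p = 0.0438), with all 4 day 14 off libraries above every other library.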

How the results depend on the processing

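At day 14 the rises of Blvrb and Hebp1 and the fall of Bach1 kept direction and call under every alternative run, and Blvra lost its call when either day 14 on library was left out. Leaving out 1 library at a time gave 3 to 5 members called at day 14, 0 to 2 at day 5, 0 over time with the vector on, 0 to 2 over time off and 0 to 2 for the difference between days. Over all tested genes the same ranges were 2999 to 5692, 0 to 330, 0 to 699, 628 to 3463 and 99 to 1068, against 5063, 77, 370, 2706 and 487 with all libraries. Without the low-count filter 2 members were called at day 5, 2 over time off and 2 for the difference between days, and DESeq2 called 2 at day 5 and 2 for the difference between days. Without the filter 992 genes were called at day 5, 1275 over time on and 1957 for the difference between days, and DESeq2 called 472, 1136 and 1327. With only the compared groups in the fit, edgeR called 0 genes at day 5 and 0 over time on. The cause was not tested.

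Groups share replicate numbers in the labels, but the deviations of same-numbered libraries correlated at only 0.03 to 0.33 and at most 2 numbers are shared in a comparison, so the numbers were not taken as pairs. With the replicate block, 225 genes were called at day 5, 1010 over time on and 1521 for the difference between days, and 0 members over time off, where Blvrb was at 1.75 (edgeR adjusted p = 0.0647). With that block Hmox1 turned sign at day 14 (-0.14) and for the difference between days (-0.17), and Hmox2 was called at day 14 (-0.61, edgeR adjusted p = 0.0455).

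Signs of log2 changes near 0 turned for some members. Leaving out 1 library at a time, Hmox1 ran from -0.45 to 1.12 at day 14, -0.48 to 0.78 at day 5, -0.49 to 1.13 over time on and -0.61 to 0.99 for the difference between days, which DESeq2 put at -0.0086. Pgrmc1 ran from -0.44 to 0.064 at day 5 and -0.14 to 0.36 over time off, and over time on Hmox2 ran from -0.35 to 0.080 and Blvrb from -0.42 to 0.33. With 16 to 101 counts of Hmox1 and 11 to 192 of Hebp1 per library, depth limits small changes of these genes.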

Other observations

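Emp1, a membrane protein gene within 200 kb of Hebp1 on chromosome 6 (135362545 to 135383173, with Fam234b and Gsg1 between them), was at 0.507 to 1.50 CPM off and 68.1 and 103.7 CPM on, a log2 change of -6.60 ± 0.38 (edgeR adjusted p = 1.56e-05), while Hebp1 changed by 3.03 ± 0.54. Fam234b, which overlaps the annotated 5' end of Hebp1 on the other strand, was at 6.86 to 9.14 CPM off and 3.25 and 3.62 CPM on, a change of 1.20 ± 0.35 (edgeR adjusted p = 0.0218). Of the 6 tested genes within 200 kb of Hebp1, edgeR called 2 higher and 1 lower, against 31.8% of all tested genes called either way, and the values ran from -6.60 (Emp1) to 1.20 (Fam234b). Against the same share, 2 of the 12 tested genes within 200 kb of Blvrb were called higher and 0 lower by edgeR, both predicted or unnamed gene models with changes of 0.49 and 0.58. These neighbours were looked up after the members' values were seen.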
